A study of Mus musculus with 4 samples.

Results

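Accessible chromatin was described at 9 mouse genes that encode ETS transcription factors: Spi1 (PU.1), Spib, Spic, Ets1, Ets2, Elf1, Elf4, Fli1 and Etv3. Every peak in the 4 deposited ATAC-seq lists that overlapped one of these genes, or the 20 kb on either side of it, was taken. After peaks with a −log10 q of 2 or more (strict peaks) were merged across libraries, the windows held 160 of the 155546 accessible regions of the series. The windows were set by gene position, while a region had to hold a strict peak in at least 1 library. The lists placed 167 and 178 peaks of the WT libraries and 147 and 138 of the IRF8KO libraries in the windows, of which 18, 36, 28 and 11 lay outside the strict regions and are counted here only. The windows held 39 regions at Fli1, 30 at Elf1, 28 at Ets1, 17 at Spi1, 16 at Elf4, 12 at Etv3, 7 each at Ets2 and Spib and 4 at Spic. No region lay in more than 1 window, although Fli1 and Ets1 are neighbours on chromosome 9, with 53.4 kb between their windows.

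Microglia are the resident macrophages of the brain. The study compared 2 WT libraries with 2 IRF8KO libraries, all from untreated C57BL/6 mice aged 3 months. The cells were isolated without enzymes and sorted by flow cytometry, and their nuclei were tagmented with a Nextera kit. The sources used here give neither the knockout allele nor the sex of the mice. They also do not say whether both libraries of a genotype came from separate animals, so each p-value measures only spread between these libraries. In the limma fit described below, that spread was largely pooled over regions of similar level (prior degrees of freedom 68.3). A low adjusted p therefore does not show that the replicates were close at that region. In bulk libraries such as these, a change in the share of a cell type cannot be told apart from a change within cells.

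ETS factors bind DNA through a shared winged helix-turn-helix domain that reads a GGAA core. PU.1 is required for the myeloid lineage and opens chromatin at many macrophage enhancers, and its own gene is known to be bound by PU.1 at an upstream element. IRF8 binds DNA weakly on its own and joins PU.1 or its relative Spi-B on composite ETS-IRF elements, where the ETS and IRF half-sites lie side by side. The comparison therefore addressed how the chromatin at the ETS genes themselves stood in microglia with and without IRF8.

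The sequences below show the regions on which the account turns. Each is the 201 bases centred on the strongest summit of its region, on the plus strand of GRCm38. They are the Spi1 gene-start region and the strongest Spi1 region away from promoters. Next come the 4 regions called lower or WT-specific, as defined below, that held an ETS-IRF motif (GGAA, any 2 bases, then GAAA). Last is the Ets2 region with the largest change, which was chosen after its values were seen. Capitals mark a CEBP motif (TTGCNNAA) in the first, an AP-1 motif (TGANTCA) in the second, the ETS-IRF motif in the next 4, an added AP-1 motif at Ets1 and an added PU.1 motif (GAGGAAGT) at Elf1. The last window held a GGAA core and none of the other motifs searched.
Spi1 +0.7 kb, chr2:91082958-91083158: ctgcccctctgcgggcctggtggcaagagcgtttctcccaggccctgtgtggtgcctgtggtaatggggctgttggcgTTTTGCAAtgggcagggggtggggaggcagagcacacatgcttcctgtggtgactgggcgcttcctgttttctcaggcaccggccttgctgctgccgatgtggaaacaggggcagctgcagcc
Spi1 +4.1 kb, chr2:91086433-91086633: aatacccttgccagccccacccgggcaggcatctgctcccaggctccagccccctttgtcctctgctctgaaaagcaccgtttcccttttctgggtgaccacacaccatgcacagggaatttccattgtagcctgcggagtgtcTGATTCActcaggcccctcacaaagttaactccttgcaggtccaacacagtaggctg
Fli1 +41.8 kb, chr9:32500978-32501178: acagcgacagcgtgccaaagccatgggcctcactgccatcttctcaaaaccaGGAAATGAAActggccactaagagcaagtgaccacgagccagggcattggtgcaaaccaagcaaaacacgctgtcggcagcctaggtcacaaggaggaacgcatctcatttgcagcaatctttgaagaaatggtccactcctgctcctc
Ets1 +16.2 kb, chr9:32652366-32652566: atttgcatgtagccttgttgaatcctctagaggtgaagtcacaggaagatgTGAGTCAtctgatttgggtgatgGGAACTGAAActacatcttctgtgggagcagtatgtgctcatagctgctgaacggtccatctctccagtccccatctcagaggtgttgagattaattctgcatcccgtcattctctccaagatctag
Etv3 +16.1 kb, chr3:87541391-87541591: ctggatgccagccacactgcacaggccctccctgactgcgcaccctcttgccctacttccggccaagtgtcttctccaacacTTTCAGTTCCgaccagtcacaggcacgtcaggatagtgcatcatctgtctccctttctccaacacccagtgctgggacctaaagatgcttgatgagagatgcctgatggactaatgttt
Elf1 +60.6 kb, chr14:79541661-79541861: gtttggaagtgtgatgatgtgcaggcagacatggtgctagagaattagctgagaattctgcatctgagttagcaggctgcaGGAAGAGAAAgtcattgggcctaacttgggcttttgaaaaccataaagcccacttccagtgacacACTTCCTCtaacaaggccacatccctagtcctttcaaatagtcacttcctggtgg
Ets2 +26.9 kb, chr16:95728840-95729040: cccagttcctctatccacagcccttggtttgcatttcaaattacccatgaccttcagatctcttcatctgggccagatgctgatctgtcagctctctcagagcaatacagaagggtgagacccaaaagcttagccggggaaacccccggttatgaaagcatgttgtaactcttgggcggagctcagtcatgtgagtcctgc

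Distances are from the GENCODE gene start to the strongest summit, positive along the direction of the gene. Pileup is the number of extended cut sites that cover a position. The value of a region in a library is its highest deposited pileup per 1000000 tags of the file header (PPM). Where every library had a deposited peak, a region was tested with limma on log2 values, each library centred on its median over the 58550 regions tested, and a call is a Benjamini-Hochberg adjusted p under 0.05 over all of these. A log2 change is IRF8KO over WT in that fit and is given ± its standard error. A WT-specific region had strict peaks in WT replicates 1 and 2 and not even a weak deposited peak in an IRF8KO library. An IRF8KO-specific region had the reverse pattern.

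Depth followed genotype, with 46948938 and 48896408 tags for WT against 78793572 and 66224648 for IRF8KO. The median value over the regions tested was 0.767 and 0.614 PPM for WT and 0.444 and 0.695 in IRF8KO, IRF8KO replicate 1 standing lowest, and without centring the median region shifted by -0.31 log2. At the Irf8 promoter the values were 2.07 and 1.49 in WT and 0.863 and 1.36 in IRF8KO (log2 change -0.39 ± 0.22, limma adjusted p = 0.198). Accessibility at a promoter reads neither transcript nor protein, so it does not check the genotype labels. Of 8 microglia markers all had a promoter region, and 4 of the 7 tested were lower in IRF8KO, including P2ry12 (log2 change -1.24). The summed level of the list was 20.1 and 15.5 PPM in WT and 7.31 and 13.1 in IRF8KO. The border macrophage list summed to 0.469 and 0.286 in WT against 1.13 and 1.83 in IRF8KO, with Mrc1 higher and no promoter region at Lyve1 or Cd163. The oligodendrocyte list summed to 1.21 and 0.982 in WT and to 0 and 0.166 in IRF8KO, with no region at Mag. The part of these shifts in the results below was not tested.

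Of the 160 regions, 90 had a peak in every library and were tested, and 27 of these changed. In IRF8KO 15 regions were higher and 12 were lower, 16.7% and 13.3% of those tested, against 13.3% and 12.5% of all regions tested in the series. The median log2 change of the 90 regions was 0.02. After centring, the WT and IRF8KO values of 61 of the 90 did not overlap, against 58.5% of all regions tested. The changes were spread over 6 genes: Fli1 had 12, Ets1 8, Ets2 3, Elf1 2, and Elf4 and Etv3 1 each, while Spi1 and Spib had none and no Spic region could be tested. Among the 27, 24 lay within the body of their own gene and 1 at a promoter, that of Ets1. Of the 90 tested, 20 lay at coding promoters and 70 outside them, and those in gene bodies were not counted. In the series, 16.4% of regions outside coding promoters were higher and 14.6% lower. Among promoter regions of coding genes the shares were 5.43% and 6.85%. Without centring only 2 higher and 6 lower calls were left, and 25.0% of calls were then higher against 55.6% with centring. Without WT replicate 1, 7 of the 27 calls were kept, 5 higher and 2 lower, and without WT replicate 2, 17 were kept, of which 6 were lower.

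**Figure D1:**
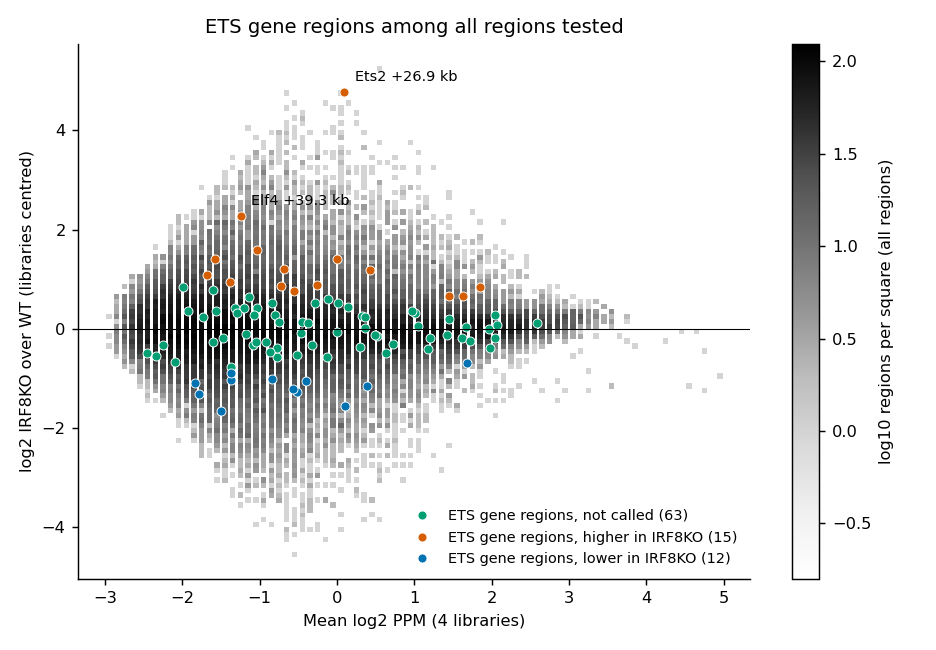
Level and change of the 90 tested ETS gene regions (points) among the 58550 regions tested in the series (grey squares, darker where more regions fall). The horizontal axis is the mean log2 PPM over 4 libraries and the vertical axis the log2 change with libraries centred; the 15 higher and 12 lower regions include weak and strong regions, and the Ets2 region at +26.9 kb stands at 4.78, above the others.

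Regions that met the WT-specific or IRF8KO-specific definition were fewer than the called ones. The windows held 10 WT-specific regions, 6.25% of 160, against 5.58% of all regions in the series, and 3 IRF8KO-specific ones, 1.88% against 3.86%. Elf1 held 4 of the WT-specific regions, Fli1 and Etv3 2 each, and Ets1 and Elf4 1 each. The IRF8KO-specific regions lay at Ets1 (2) and Etv3 (1). The remaining 57 untested regions were neither, and 40 of the 160 regions had a strict peak in a single library. The WT libraries had 135 and 130 strict peaks in the windows, a mean of 132.5 ± 3.54 (SD, n = 2), and the IRF8KO libraries 107 and 118, a mean of 112.5 ± 7.78 (SD, n = 2). Over the whole series the lists held 97473 and 98863 strict peaks in WT and 83996 and 95921 in IRF8KO, so IRF8KO was lower there too. The difference of -20 had p = 0.33 in a two-sided exact permutation test, which is as low as 2 libraries against 2 can go. The summed length of the window peaks overlapped between genotypes, at 36.1 and 34.2 kb in WT and 34.3 and 37 kb in IRF8KO.

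For the 57 untested regions specific to neither genotype, a fit with the lowest deposited pileup of a library in place of its missing peak put 4 higher and 5 lower past the threshold, where 4.09% and 4.25% of such regions in the series were higher and lower. Each of the 5 lower ones lacked its peak in IRF8KO replicate 1. They were Elf1 +52.3 kb (log2 change -2.69 ± 0.37), Fli1 +35.1 kb (-2.12 ± 0.36), Etv3 -12.7 kb (-1.67 ± 0.37), Spi1 -16.6 kb (-1.63 ± 0.35) and Elf1 +26.8 kb (-1.14 ± 0.44). The region at Spi1 -16.6 kb lies in an intron of Psmc3 and an exon of Slc39a13 and measured 1.30 and 0.900 PPM in WT, no peak in IRF8KO replicate 1 and 0.755 in IRF8KO replicate 2. The 4 higher ones lacked a peak in WT replicate 2, and that at Elf4 in both WT libraries. They were Elf1 +27.9 kb (1.54 ± 0.40), Elf4 +34.4 kb (1.30 ± 0.45), Ets1 +40.1 kb (1.28 ± 0.43) and Fli1 +34.3 kb (1.05 ± 0.40). The sizes of these changes depend on the pileup put in for the missing peak.

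Spi1, which encodes PU.1, had an accessible cluster around its annotated start and a further region over its downstream starts. None of its 11 tested regions was called, where 13.3% of regions tested in the series were higher and 12.5% lower. Of the 11, 5 lay at coding promoters. In the series, 5.43% of promoter regions of coding genes were higher and 6.85% lower. GENCODE annotates coding transcripts of Spi1 from chr2:91082390 and, 13.7 and 14.4 kb further in, from a downstream pair of starts. The gene-start region at +0.7 kb measured 3.49 and 2.27 PPM in WT and 2.36 and 2.91 in IRF8KO. Both IRF8KO values lay between the WT values, and the log2 change was 0.20 ± 0.18 (limma adjusted p = 0.479), which turned to -0.10 without centring. The regions at -1.1 kb and -0.1 kb had log2 changes of 0.05 ± 0.20 and -0.06 ± 0.24. The region over the downstream starts, at +14.3 kb, measured 4.41 and 2.78 in WT and 2.44 and 3.43 in IRF8KO, again overlapping, with a log2 change of 0.03 ± 0.17.

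The upstream cluster lies 13.0 to 15.5 kb before the downstream starts. A PU.1-bound upstream enhancer of Spi1 is known from that side of the downstream promoter. In the intron, the region at +4.1 kb was the strongest of the Spi1 window outside promoters, with 3.07 and 2.70 PPM in WT and 1.52 and 2.04 in IRF8KO. Its groups did not overlap in PPM, but the log2 change of -0.40 ± 0.19 missed the threshold (limma adjusted p = 0.115). The region at +2.3 kb stood near 2 in every library, at 1.96 and 2.05 against 1.99 and 2.02. The strongest peak of the window, 7.01 and 5.91 against 5.20 and 6.07 PPM at -11.7 kb, belonged to the promoter of the neighbouring zinc transporter gene Slc39a13. Over the 11 tested Spi1 regions the log2 change ran from -0.40 to 0.52 with a median of 0.03. A further 6 regions lacked a peak in at least 1 library and were not tested, among them the region at -16.6 kb described above.

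**Figure D2:**
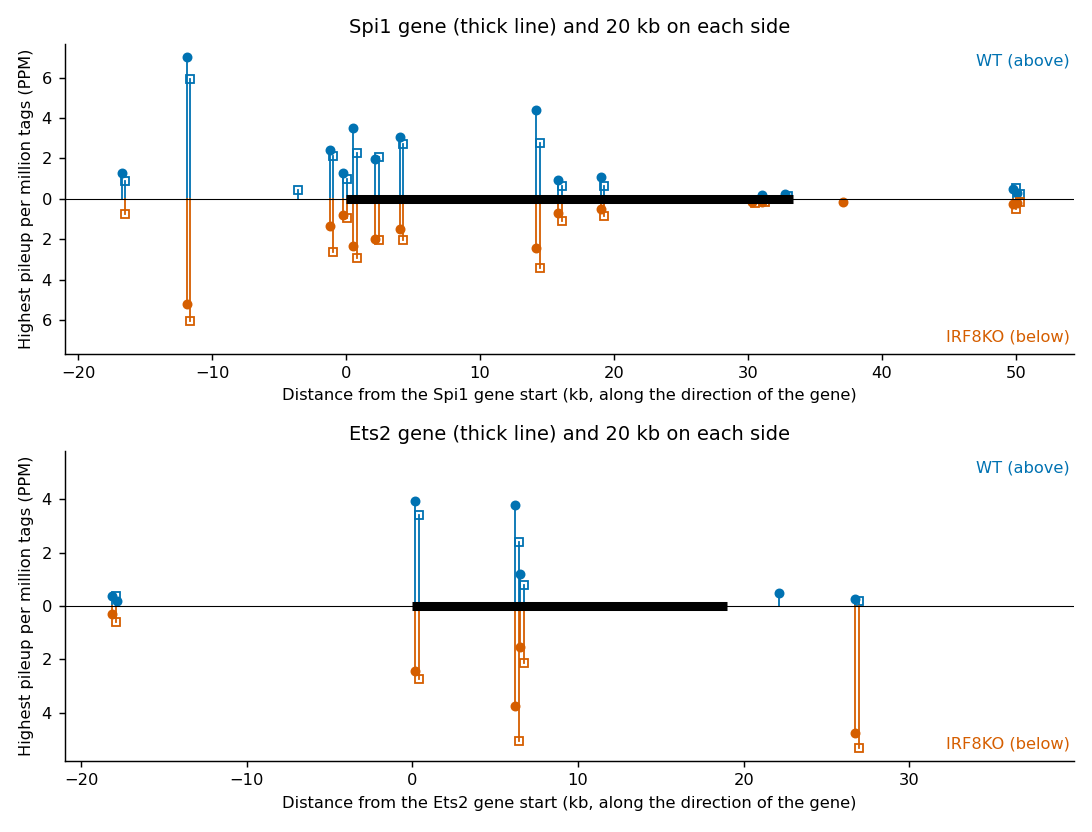
Highest PPM of each region in the Spi1 and Ets2 windows against distance from the gene start in kb, WT drawn upward and IRF8KO downward (filled circles replicate 1, open squares replicate 2, thick line the gene body). No tested Spi1 region was called, while at Ets2 the region at +26.9 kb reaches 4.76 and 5.33 in IRF8KO against 0.277 and 0.184 in WT.

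By the distance between promoter regions over the 4 libraries, on log2 PPM, the 5 genes most like Spi1 among 12063 were BC049762 and Clk4, which share a region (Euclidean distance 0.119), Setd4 (0.134), Smad3 (0.152) and AI467606 (0.152). The values of Setd4 were 3.39 and 2.43 in WT and 2.26 and 3.00 in IRF8KO.

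Spib, which encodes the PU.1 relative Spi-B of B cells and plasmacytoid dendritic cells, had no region within 1 kb of its gene start. Its strongest region away from promoters, over a coding exon at +3.9 kb, measured 0.895 and 0.777 PPM in WT and 0.812 and 1.30 in IRF8KO, with a log2 change of 0.60 ± 0.25 (limma adjusted p = 0.0649). The peak at -16.8 kb belonged to the promoter of the DNA polymerase subunit gene Pold1 and was not called, at 4.58 and 4.13 against 2.79 and 4.45 (log2 change 0.00). Spic, which encodes the PU.1 relative of red pulp macrophages, showed weak peaks only. None of its 4 regions had a peak in every library, and the highest value was 0.257 PPM, in IRF8KO replicate 2, at +1.9 kb near its second annotated start. The same region measured 0.17 for WT replicate 1 and 0.178 in IRF8KO replicate 1 and had no peak in WT replicate 2. The strongest distal region, at +15.1 kb, measured 0.128 and 0.205 in WT and had no peak in IRF8KO.

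Promoter regions of the other ETS genes were mostly not called. Of the 9 genes, 6 had a region within 1 kb of the gene start, all 6 were tested, 0 were higher and 1 was lower, where 5.43% and 6.85% of promoter regions of coding genes were higher and lower in the series. Ets2 measured 3.92 and 3.39 PPM in WT and 2.44 and 2.73 in IRF8KO (log2 change -0.19 ± 0.18). Elf1, whose region is shared with the neighbouring gene Wbp4, measured 5.45 and 4.34 against 2.89 and 4.18 (-0.18 ± 0.16). Etv3 measured 2.62 and 2.80 against 1.51 and 2.49 (-0.18 ± 0.19), and Elf4 1.04 and 0.654 against 0.520 and 0.997 (0.11 ± 0.27). Like that of Spi1, the signs of the Ets2, Elf1, Etv3 and Elf4 changes each flipped in at least 1 alternative.

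Ets1, a factor best known from lymphocytes and endothelium, was the gene whose start changed. At its first annotated start, chr9:32636054-32636233, the region measured 0.532 and 0.491 PPM in WT and 0.114 and 0.242 in IRF8KO. Both IRF8KO values were below both WT values, and the log2 change was -1.32 ± 0.36 (limma adjusted p = 0.00308). This call was lost without WT replicate 1 (adjusted p = 0.0962), without WT replicate 2 (0.0563) and without IRF8KO replicate 1 (0.0502). The stronger Ets1 start lies inside the gene at +59.8 kb, and its region measured 4.30 and 4.01 in WT and 3.31 and 4.98 in IRF8KO, a log2 change of 0.27 ± 0.16 (adjusted p = 0.235). Fli1 had no region within 1 kb of its first start. At its second start the regions at +1.5 and +2.6 kb had log2 changes of -0.52 ± 0.28 and -0.13 ± 0.18, neither called.

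**Figure D3:**
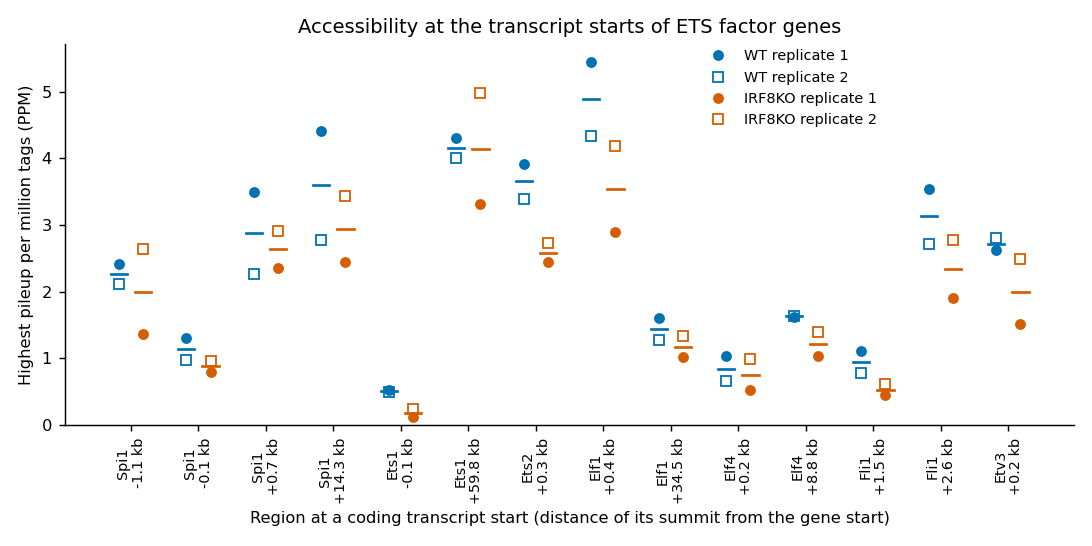
Highest PPM at regions within 1 kb of a coding transcript start, by library (points) with group means (bars), n = 2 libraries per genotype. The 2 genotypes overlap or lie close together at Spi1. At the first Ets1 start (-0.1 kb), the only region shown that was called, both IRF8KO libraries lie below both WT libraries. On this uncentred scale the same holds at Spi1 -0.1 kb, Ets2 +0.3 kb, Elf1 +0.4 kb, Elf4 +8.8 kb, Fli1 +1.5 kb and Etv3 +0.2 kb, which were not called.

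Regions inside the Ets1 gene moved in both directions. In an intron at +16.2 kb, the region printed above with its ETS-IRF and AP-1 motifs measured 0.682 and 0.716 PPM in WT and 0.152 and 0.211 in IRF8KO. The groups lay far apart, and accessibility fell by 1.66 on the log2 scale (SE 0.34, limma adjusted p = 8.33e-05). At +84.0 kb the values were 1.17 and 1.25 in WT and 0.267 and 0.619 in IRF8KO, a fall by 1.27 (SE 0.28, adjusted p = 0.000238). A WT-specific region at +90.7 kb, with 0.256 and 0.245 PPM, had no peak in IRF8KO.

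On the other side, 5 intronic Ets1 regions rose, at +32.0, +49.8, +73.8, +94.6 and +99.5 kb, by log2 changes of 0.77 to 1.41. At +32.0 and +49.8 kb IRF8KO replicate 1 (0.571 and 0.711 PPM) lay inside the WT range. At +99.5 kb WT replicate 2 had no strict peak and a pileup of 7, where its lowest deposited pileup was 6. The region at +73.8 kb went from 0.511 and 0.409 PPM in WT to 0.673 and 1.07 in IRF8KO (log2 change 1.2 ± 0.29, limma adjusted p = 0.000683). An IRF8KO-specific region at +18.4 kb, close to the lower region at +16.2 kb, measured 0.520 and 0.861 in IRF8KO and had no peak in WT. At an equal PPM it would have given a WT pileup of 24.4 to 25.4, where the lowest pileup deposited in a WT library was 6. A weaker IRF8KO-specific region lay at +135.0 kb, past the gene end, with 0.152 and 0.227, where an equal PPM would have given a WT pileup of only 7.15 to 7.45, close to the lowest deposited. The strongest Ets1 region away from promoters, at +80.0 kb, was not called, at 1.64 and 1.70 against 1.03 and 1.45 (log2 change -0.15 ± 0.22).

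Most Ets1 calls were lost without one library or another. Without WT replicate 1, 6 of the 8 were lost, with adjusted p from 0.0686 to 0.478, and without IRF8KO replicate 2, 3 were lost, with adjusted p from 0.0510 to 0.169. Without WT replicate 2 the start region and the region at +99.5 kb (log2 change 0.89, adjusted p = 0.126) were lost. The change at +32.0 kb went from 0.77 to 0.41 without WT replicate 1. Without centring the 5 higher calls were lost and the 3 lower calls were kept. The region at +16.2 kb kept its call in all 13 alternatives run, with log2 changes from -1.96 to -1.47. Ets1 is also expressed in lymphocytes and endothelium. The lymphocyte markers summed to 0.447 and 0.225 PPM in WT and 0.267 and 0.181 in IRF8KO, with no promoter region at Cd79a, Cd3e, Cd4 or Lck. The endothelial markers summed to 1.30 and 1.10 in WT and 0.533 and 0.649 in IRF8KO, with none at Cdh5. The part of either list in the Ets1 and Fli1 results was not tested.

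Fli1, an ETS activator of blood and vascular cells, had the most regions of the 9 genes. Of 25 tested, 5 were higher and 7 lower (20% and 28%, against 13.3% and 12.5% in the series). Among these 25, 23 lay outside coding promoters, where the series shares were 16.4% and 14.6%. At Ets1 5 were higher and 3 lower of 14 tested, and at Ets2 3 of 5 were higher. The fall at +21.2 kb, in an intron, was the firmest, from 2.34 and 1.80 PPM in WT to 0.393 and 0.815 in IRF8KO. Its log2 change was -1.55 ± 0.24 (limma adjusted p = 2.14e-07) and it kept its call in all 13 alternatives run, between -1.86 and -1.30. One of the strongest regions of the gene, at +41.8 kb with the ETS-IRF motif printed above, measured 4.86 and 4.23 in WT and 1.65 and 3.13 in IRF8KO. Both IRF8KO values were below both WT values, a log2 change of -0.69 ± 0.17 (adjusted p = 0.00114), which shrank to -0.16 with the deposited fold enrichment in place of pileup. The other 5 lower regions lay at +43.2, +49.0, +63.8, +76.2 and +133.3 kb, with log2 changes from -1.09 to -0.89.

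The Fli1 regions that rose included one that adjoined a lower one. At +64.0 kb the values went from 0.319 and 0.307 PPM in WT to 0.558 and 1.03 in IRF8KO (log2 change 1.58 ± 0.31, limma adjusted p = 3.97e-05). The neighbouring region at +63.8 kb, 69 bp away, went the opposite way, from 0.937 and 0.839 to 0.393 and 0.317 (-1.02 ± 0.31, adjusted p = 0.00794). The fall at +63.8 kb was called in 7 of its 13 alternatives. Without centring (-1.33, limma adjusted p = 0.0925) and in limma without trend it was not called. It was lost without WT replicate 1 (-1.13, adjusted p = 0.229), without WT replicate 2 (-0.95, 0.0792), without IRF8KO replicate 2 (-0.51, 0.275) and with fold enrichment (-0.80, 0.0676). The rise at +64.0 kb was called in 11 of 13 and was lost without WT replicate 1 (1.42, 0.0552) and without centring. At +32.9 kb accessibility rose from 0.788 and 0.593 to 1.28 and 1.66 (1.40 ± 0.24, adjusted p = 3.61e-06). The regions at +3.5, +11.7 and +25.9 kb rose by log2 changes of 0.67, 0.95 and 0.66.

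Between these, the strongest Fli1 region away from promoters, at +34.0 kb, was not called, at 4.81 and 4.29 against 3.20 and 4.70 (log2 change 0.07 ± 0.16), its sign flipping in 3 alternatives. WT-specific regions lay at +56.0 and +100.2 kb, with 0.225 to 0.286 PPM. Without WT replicate 1, 10 of the 12 Fli1 calls were lost (adjusted p from 0.0552 to 0.293), without WT replicate 2, 7 were lost (0.0725 to 0.358), and without centring 11 were lost. Leaving out IRF8KO replicate 1 ended 3 of them (0.0763 to 0.356) and leaving out IRF8KO replicate 2 ended 4 (0.0604 to 0.275). The log2 changes at +49.0 and +43.2 kb were then -0.62 and -0.53 without IRF8KO replicate 1, and that at +76.2 kb was -0.68 without IRF8KO replicate 2, against -1.06, -0.89 and -1.04 with all libraries. With fold enrichment 5 of the 12 Fli1 calls were lost (limma adjusted p from 0.0565 to 0.742), and in limma without trend also 5 (0.0531 to 0.0953). Among the 27 calls of all genes, the call at +43.2 kb was lost most often, in 10 of its 13 alternatives.

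**Figure D4:**
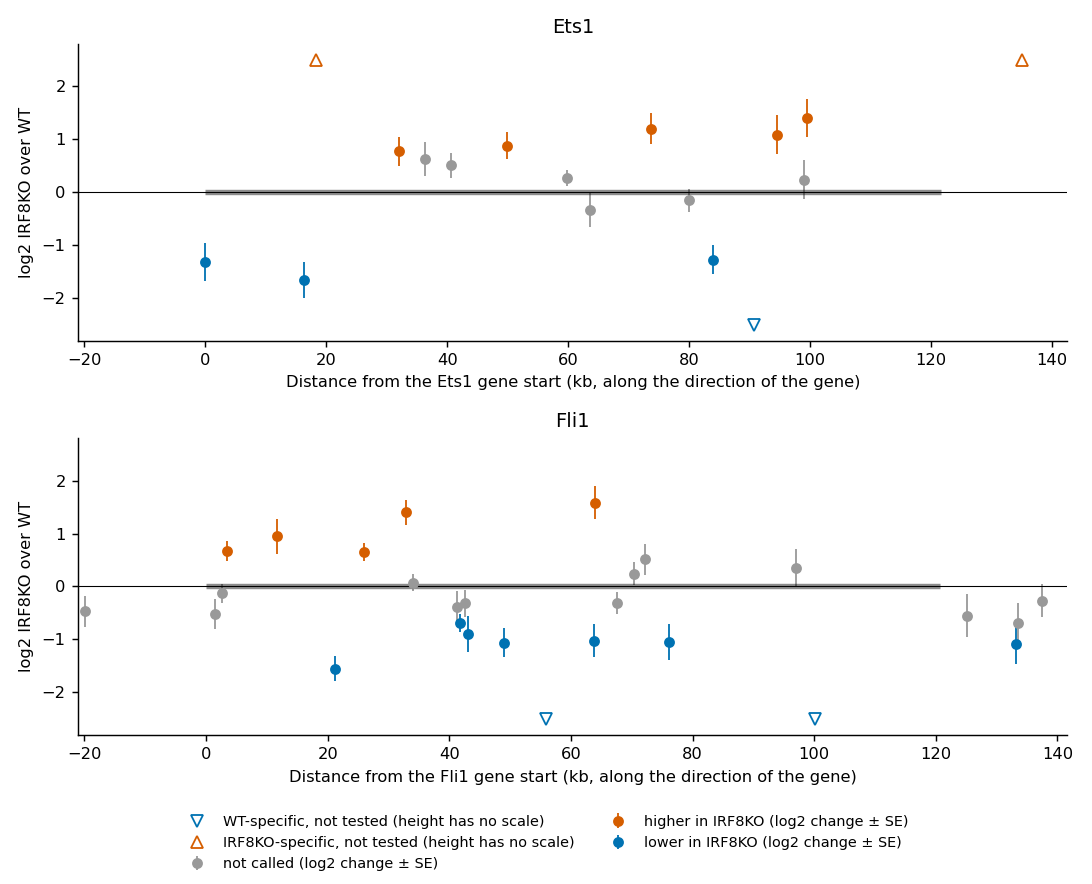
Log2 change of each tested region (IRF8KO over WT, ± SE, libraries centred) against distance from the gene start in kb for Ets1 and Fli1, with genotype-specific regions as triangles at the edge, whose height has no scale. Higher and lower regions are interspersed along both genes, and the largest falls are at +16.2 kb in Ets1 (-1.66) and +21.2 kb in Fli1 (-1.55).

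Ets2, an ETS factor that acts downstream of Ras and MAP kinase signalling and is expressed in macrophages, had the largest rise of the 90 regions. A region in intergenic DNA at +26.9 kb, 7.9 kb past the gene end (chr16:95728764-95729370), measured 0.277 and 0.184 PPM in WT and 4.76 and 5.33 in IRF8KO. The deposited pileups were 13 and 9 for WT and 375 and 353 for IRF8KO. The log2 change of 4.78 ± 0.24 (limma adjusted p = 5.48e-26), 27.5-fold with the libraries centred, ranked 3 from the highest of 58550 regions. It kept its call in all 13 alternatives run, between 2.90, with the deposited fold enrichment, and 5.06. The nearest coding transcript start was that of an Ets2 transcript, and going away from Ets2 the next was that of Psmg1, 261.0 kb further on.

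Inside Ets2, adjoining intronic regions also rose. The region at +6.3 kb went from 3.77 and 2.39 PPM in WT to 3.76 and 5.04 in IRF8KO, where IRF8KO replicate 1 fell inside the WT range and the log2 change of 0.84 ± 0.17 came with centring (limma adjusted p = 5.41e-05). Its neighbour at +6.6 kb went from 1.21 and 0.798 to 1.55 and 2.14 (1.19 ± 0.22, adjusted p = 1.29e-05). With fold enrichment in place of pileup these changes were -0.01 and 0.33, and neither was called. Without centring neither was called, and the call at +6.3 kb was also lost without WT replicate 1 (adjusted p = 0.0581) and without WT replicate 2 (0.0513).

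Elf1, an ETS activator of lymphoid and myeloid genes, had 4 WT-specific regions among 30 (13.3%), against 5.58% in the series and 2 among 12 (16.7%) at Etv3. They lay at +4.5, +49.8, +60.6 and +76.9 kb, all in introns. The region at +4.5 kb was the strongest, with 1.32 and 1.23 PPM in WT and no deposited peak in IRF8KO. An equal level would have given a pileup of 81.3 to 96.7 there, against lowest deposited pileups of 8 and 7 in the IRF8KO lists. It lies within 10 kb of the Elf1 promoter, over which the peak caller takes its local background, and its fold enrichment in WT was 3.96 and 4.74. The part of that background in the missing peaks was not tested. The regions at +49.8 and +76.9 kb measured 0.639 and 0.573 and 0.554 and 0.245 in WT. The region at +60.6 kb, printed above, held both an ETS-IRF and a PU.1 motif and measured 0.277 and 0.286 in WT.

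At +54.3 kb accessibility at Elf1 fell from 2.30 and 2.05 PPM in WT to 0.584 and 1.07 in IRF8KO (log2 change -1.15 ± 0.22, limma adjusted p = 2.71e-05). A region at +41.4 kb rose, from 0.469 and 0.532 to 0.432 and 1.25 (0.86 ± 0.30, adjusted p = 0.0251), although IRF8KO replicate 1 was below both WT libraries in PPM. Without IRF8KO replicate 2 that call was lost (log2 change 0.46, adjusted p = 0.422), without IRF8KO replicate 1 the change was 1.36, and without WT replicate 1 both Elf1 calls were lost (0.0502 at +54.3 kb and 0.477 at +41.4 kb). With fold enrichment in place of pileup neither was called, at -0.53 (0.14) and 0.63 (0.119), and without centring the call at +41.4 kb was lost (0.61). The strongest distal region, at +68.4 kb, was not called, at 2.02 and 1.82 against 1.65 and 2.39 (0.35 ± 0.20). The Sugt1 promoter region in the window was not called (-0.39).

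Elf4, an X-linked ETS factor that promotes interferon responses, had 1 higher region of 12 tested (8.33%, against 13.3% in the series). It lay in an intron at +39.3 kb and rose from 0.277 and 0.164 PPM in WT to 0.685 and 1.01 in IRF8KO (log2 change 2.27 ± 0.33, limma adjusted p = 4.23e-08). The call was kept in all 12 alternatives that gave it a value, between 1.92 and 2.47. Next to it, at +39.9 kb, lay a WT-specific region with a PU.1 motif and 0.319 and 0.266 PPM. The strongest distal Elf4 region, at +29.4 kb, was not called, at 1.73 and 1.39 against 0.673 and 1.40 (-0.37 ± 0.23).

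Etv3, an ETS repressor that contributes to cell cycle arrest in macrophages, had 1 lower region of 5 tested (20%, against 12.5% in the series), inside the gene. At +4.4 kb, in a stretch annotated as UTR, the values went from 1.26 and 1.04 PPM in WT to 0.292 and 0.544 in IRF8KO (log2 change -1.22 ± 0.28, limma adjusted p = 0.000386), a call that was lost without WT replicate 1 (0.0739) and with fold enrichment (0.263). WT-specific regions stood on either side, at +3.6 kb with 0.511 and 0.593 and at +16.1 kb with 0.447 and 0.348, the latter with the ETS-IRF motif printed above. An IRF8KO-specific region lay at -16.1 kb, with 0.330 and 0.272. The strongest distal region, at -4.1 kb, measured 4.54 and 3.52 against 2.45 and 3.02 and was not called (-0.25 ± 0.17). All 5 tested Etv3 regions had a negative log2 change, from -1.22 to -0.18, but with fold enrichment the promoter stood at 0.30 and the -4.1 kb region at 0.10, and without WT replicate 2 the promoter stood at 0.02.

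**Figure D5:**
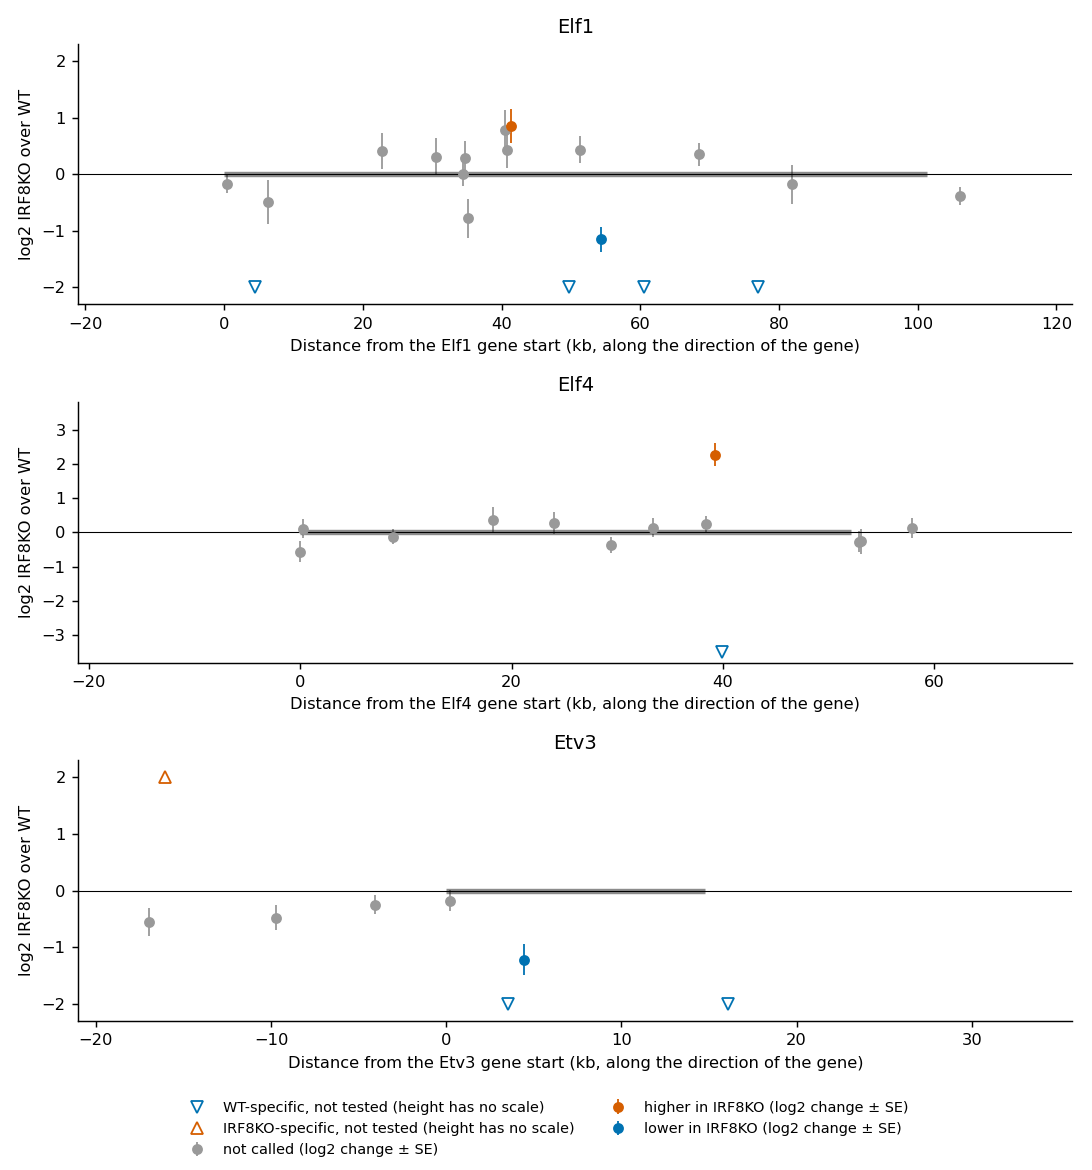
Log2 change of each tested region (IRF8KO over WT, ± SE, libraries centred) against distance from the gene start in kb for Elf1, Elf4 and Etv3, with genotype-specific regions as triangles at the edge, whose height has no scale. Elf1 carries 4 WT-specific regions along its body, Elf4 has its higher region at +39.3 kb beside a WT-specific one, and the tested Etv3 regions lie below 0 on this scale, while with fold enrichment those at the promoter and at -4.1 kb lie above it.

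The motifs of the printed windows were counted in every region, within 100 bp of its strongest summit and on both strands. GGAA was present in 98.1% of the 160 regions and in 92.8% of all regions of the series, and it is part of the PU.1 and ETS-IRF motifs. The ETS-IRF motif occurred in 8 of 160, 5%, against 4.30% of all regions. It was found in 4 of the 22 regions called lower or WT-specific and in 0 of the 18 called higher or IRF8KO-specific. In the whole series 12.6% of lower and 2.57% of higher regions held it. AP-1 had the opposite split, 2 of 22 against 6 of 18, with 8.12% of all regions holding it, and the PU.1 motif was in 3 of 22 and 0 of 18, with 7.74% of all regions holding it. Over the whole series, 17.5% of higher and 7.18% of lower regions held AP-1, and 12.8% of higher and 15.6% of lower ones the PU.1 motif. These series shares are of called regions alone, and among the called regions of the windows 2 of 12 lower and 0 of 15 higher held the ETS-IRF motif, 1 of 12 and 5 of 15 AP-1, and 1 of 12 and 0 of 15 the PU.1 motif. The CEBP motif was in 7.50% of the 160 regions and 9.54% of all, RUNX (TGTGGTT) in 6.25% and 5.57%, and the interferon response motif (GAAA, any 2 bases, then GAAA) in 2.50% and 3.13%. Within 50 bp of the summit the counts in the 22 and the 18 regions were 4 and 0 for ETS-IRF, 1 and 4 for AP-1, and 1 and 0 for PU.1. These counts are descriptions of small numbers of regions, and a match is not evidence of binding.

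Of the 17 remaining ETS family genes, 13 had a promoter region and 12 were tested, with 1 higher and 2 lower, where 5.43% and 6.85% of promoter regions were higher and lower in the series. Gabpa, which encodes the DNA-binding subunit of GABP, was higher after centring (log2 change 0.49 ± 0.15, limma adjusted p = 0.00801), at 6.18 and 5.73 PPM in WT and 6.10 and 7.53 in IRF8KO, with IRF8KO replicate 1 inside the WT range. Elk3, a serum response factor partner, and Etv6, a transcriptional repressor needed for blood cell development, were lower (-0.62 ± 0.23, adjusted p = 0.0358, and -0.53 ± 0.19, adjusted p = 0.0334). The promoters of Erg, Ehf, Fev and Spdef had no region. Of 11 genes for factors that act with PU.1 or oppose it, 9 promoters were tested and 1 was higher (against 5.43% of promoter regions in the series), that of Runx1, from 3.09 and 2.52 PPM in WT to 2.97 and 4.24 in IRF8KO (0.65 ± 0.17, adjusted p = 0.00216), again with IRF8KO replicate 1 inside the WT range. Cebpa, Cebpb, Jun and Irf4 were not called, with log2 changes of 0.21, -0.27, 0.10 and -0.05. The median promoter change was -0.14 over the ETS family list, -0.10 over the partner list and -0.03 over all promoter regions.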

How the data were processed

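ATAC-seq, in which the Tn5 transposase cuts accessible DNA, was measured in 4 libraries of sorted microglia, grouped by the genotype in the labels. Reads were handled with bcl2fastq, Bowtie2, MACS2 2.1.1.20160309 and deepTools on mm10, per the submitters' processing notes. Per the file headers, peaks were called in each library separately, without a control, at a p of 0.01, with cut sites shifted by -37 bp and extended to 73 bp, duplicates kept and a local background of 10000 bp. Tag size was 50 bp in WT and 49 bp in IRF8KO, per the file headers, so tag size and depth both followed genotype and cannot be told apart from it. The deposited pileup is a signal in whole numbers, not scaled for depth. Fold enrichment, as deposited, is a ratio over the local background of that library, and p and q are deposited as −log10 values. The headers state that q was not calculated, yet the column holds values, and these were used.

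Intervals were reduced to distinct peaks, strict peaks on the autosomes and X were merged, overlap meant 1 bp, and gene windows came from GENCODE M21. Pileup divided by header tags assumes that pileup scales with tag number, and a higher share of tags in peaks raises it. Centring on the library median removes such a shift and also any true one. Regions were tested with limma 3.58.1 with trend (R 4.3.3) on all 4 libraries, with no block. On simulated data with 200 of 58550 regions changed, 44% of changes of 1 log2 unit and 82% of changes of 2 were recovered. There, 2 of 128 calls were unchanged regions. The real fit called far more regions, 7816 higher and 7298 lower, and the simulation gave every region 1 common extra spread. Its shares are therefore not the recovery or error rates of the calls made here. Depth limits weak peaks: the lowest pileups deposited were 6, 6, 8 and 7. No pairing was taken from the replicate numbers, since same-numbered deviations correlated at 0.004.

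Members, gene lists and motifs were chosen with earlier results of these data known. The rule for named regions took each gene's promoter region (within 1 kb of the gene start), its strongest region outside promoters, every called region and every genotype-specific region, and allowed neighbouring genes whose promoter lies in a window. Other regions described (further transcript starts, Spi1 +2.3 kb, Spic +1.9 kb and the untested regions past the threshold with missing peaks filled) were chosen after their values were seen. Markers of monocytes or neutrophils, plasmacytoid dendritic cells, astrocytes and neurons were looked at besides those in the results, and 0 of their promoter regions were called, with summed levels per library of 0.123 to 0.257, 1.41 to 3.37, 0.184 to 0.511 and 0.453 to 0.895 PPM, the pileup per 1000000 tags. Alternatives changed the scaling, readout, peak threshold, treatment of missing peaks, test, overlap, window and libraries, and 1 added after seeing the data took the strongest region at any coding transcript start. The value of 1 marker gene is not reported here.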

Additional observations from a re-analysis of the deposited data

How the results depend on the processing

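Among the 27 calls, 4 kept theirs in every alternative that gave them a value: Ets1 +16.2 kb, Ets2 +26.9 kb, Elf4 +39.3 kb and Fli1 +21.2 kb, with adjusted p of at most 0.0421, 0.0125, 0.0187 and 0.0432. Higher and lower calls numbered 15 and 12, against 2 and 6 without centring. They were 11 and 6 with fold enrichment as the readout and 12 and 9 in limma without trend. With absent peaks set to the lowest pileup they were 19 and 20, where 160 regions were tested in place of 90. Leaving out 1 library gave 5 to 14 higher and 2 to 14 lower calls. Over all regions, 7816 higher and 7298 lower calls became 1643 and 3994 without centring (51.7% and 29.1% higher), and 2707 and 1728 without WT replicate 1. WT-specific and IRF8KO-specific regions, 10 and 3, numbered 5 and 1 at a −log10 q of 5, 18 and 8 from all deposited peaks, 11 and 2 at an equal PPM, and 11 to 21 and 4 to 10 with 1 library left out. The difference in strict peaks stayed negative in every alternative run. The Spi1 gene-start change of 0.20 became -0.10 without centring and ran from 0.04 to 0.41 with 1 library left out. Signs also turned without centring at the Elf4 promoter (-0.20) and Fli1 +34.0 kb (-0.23), and at the latter with quantile normalization (-0.02). With fold enrichment they turned at the Elf1 promoter (0.05), the Etv3 promoter (0.30), Ets1 +80.0 kb (0.17), Ets2 +6.3 kb (-0.01) and Etv3 -4.1 kb (0.10). With 1 library left out, the sign turned at 5 sites, with changes between -0.38 and 0.08 at the Ets2 promoter (turned without IRF8KO replicate 2), -0.08 and 0.31 at the Elf4 promoter (without WT or IRF8KO replicate 2), -0.41 and 0.02 at the Etv3 promoter and -0.36 and 0.03 at Ets1 +80.0 kb (both without WT replicate 2), and -0.03 and 0.16 at Fli1 +34.0 kb (without WT replicate 1). With any coding transcript start, chosen after seeing the data, the Ets1 promoter change was 0.27 and that of Elf4 -0.13. The cause of these shifts was not tested. The replicate numbers share only a number, and with the replicate block the calls were again 15 higher and 12 lower, with all 38 changes keeping their side of the threshold. With 1 library left out, the lone library of its genotype is assumed to vary like the other. Regions of low pileup limit what can be called, and a missing peak is a level under the peak caller's threshold and does not show closed chromatin.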
